A study of Homo sapiens with 8 samples.

Results

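Origins of replication were described at 10 imprinted genes that lie in 4 clusters. H19, IGF2, KCNQ1, KCNQ1OT1, and CDKN1C lie at 11p15 on chromosome 11, DLK1 and MEG3 at 14q32 on chromosome 14, SNRPN and UBE3A at 15q11 on chromosome 15, and GNAS at 20q13 on chromosome 20. An origin belonged to a gene when it overlapped the gene body, as annotated in GENCODE release 44 on hg38, or the 20 kb on either side of it. KCNQ1OT1 lies inside KCNQ1, and the window of CDKN1C overlaps that of KCNQ1, so the 10 windows join into 8 that cover 1.23 Mb. In these windows lay 53 of the 30197 origins listed in WT cells, 44 of 33535 in *ORC1Δ* cells, 55 of 37813 in *ORC2Δ* cells, and 62 of 41332 in *ORC5Δ* cells. Joined across the lines, they form 73 of 56863 origin regions.

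Imprinted genes are transcribed mainly from the copy inherited from one parent, and methylation of the DNA at control regions marks which copy that is. Long noncoding RNAs such as H19, KCNQ1OT1, and MEG3 are made from one parental copy, while neighboring genes such as IGF2, CDKN1C, and DLK1 are active on the other. The parental copies of imprinted clusters have been described to replicate at different times in S phase. The reads were not assigned to parental copies here, so each value is for both copies together.

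SNS-seq sequences short nascent strands, the pieces of new DNA that are left near sites where replication has just started. It was applied to HCT116 colon cancer cells and to 3 lines made from them in which ORC1, ORC2, or ORC5, subunits of the origin recognition complex, was inactivated with CRISPR–Cas9. All 4 lines lack p53 (p53-/-), each was sampled as 2 biological replicates (8 samples), and no treatment is named in the labels. Each knockout is represented by 1 line, and the knockout lines had been passaged for a long time. A small amount of a truncated ORC2 protein has been described by others in *ORC2Δ* cells, but the authors of the study did not detect it. The deposited lists hold the peaks found in both replicates of a line, and the deposited tables hold read counts of WT and 1 knockout line with the replicates merged, so the spread of replicates is unknown and no line was tested against another. Intervals cover counting error only, and they are too narrow where duplicated reads of 1 molecule were counted. A line had between 6416892 and 8523971 reads in the origins of a table, and the median WT count of an origin in the windows was 116 to 120. Folds are ratios of RPM, in which the reads of an origin are scaled by all origin reads of that line in its table. The 3 comparisons share the WT reads.

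Sequences of origins described below are shown first, as up to 300 bases of hg38 written 5′ to 3′, for origins near transcript starts, the lowest origin, and 1 of the 4 that rose. Those of 4 origins nearest a transcript start of KCNQ1OT1, SNRPN, MEG3, and GNAS, and of the origin that was lowest in the knockout lines, have each CG in capitals, since CG is the dinucleotide that carries DNA methylation.

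KCNQ1OT1, chr11:2698558-2698857, plus strand: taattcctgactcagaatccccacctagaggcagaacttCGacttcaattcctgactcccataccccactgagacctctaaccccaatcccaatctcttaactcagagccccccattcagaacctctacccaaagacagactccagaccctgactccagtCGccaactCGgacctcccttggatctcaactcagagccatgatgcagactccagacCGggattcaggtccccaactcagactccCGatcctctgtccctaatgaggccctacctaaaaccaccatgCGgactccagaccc
SNRPN, chr15:24851425-24851724, plus strand: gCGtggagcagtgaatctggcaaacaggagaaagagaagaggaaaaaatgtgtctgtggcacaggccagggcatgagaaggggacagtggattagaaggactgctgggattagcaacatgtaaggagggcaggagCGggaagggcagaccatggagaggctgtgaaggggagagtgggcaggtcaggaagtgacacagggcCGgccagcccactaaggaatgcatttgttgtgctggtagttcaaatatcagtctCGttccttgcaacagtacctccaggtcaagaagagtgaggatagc
MEG3, chr14:100827268-100827567, plus strand: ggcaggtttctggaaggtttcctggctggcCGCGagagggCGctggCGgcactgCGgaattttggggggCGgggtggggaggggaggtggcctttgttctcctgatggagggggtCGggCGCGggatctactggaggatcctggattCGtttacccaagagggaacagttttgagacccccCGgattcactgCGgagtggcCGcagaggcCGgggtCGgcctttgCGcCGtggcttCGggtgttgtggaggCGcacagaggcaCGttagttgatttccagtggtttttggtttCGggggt
GNAS, chr20:58892507-58892806, plus strand: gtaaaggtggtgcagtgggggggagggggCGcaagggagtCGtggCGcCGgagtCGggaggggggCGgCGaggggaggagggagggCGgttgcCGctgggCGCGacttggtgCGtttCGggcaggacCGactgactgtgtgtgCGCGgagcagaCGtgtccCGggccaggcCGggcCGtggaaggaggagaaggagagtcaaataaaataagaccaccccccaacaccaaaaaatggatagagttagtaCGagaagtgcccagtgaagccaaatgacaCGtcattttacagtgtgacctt
Lowest origin, in the flank of GNAS, chr20:58822898-58823197, plus strand: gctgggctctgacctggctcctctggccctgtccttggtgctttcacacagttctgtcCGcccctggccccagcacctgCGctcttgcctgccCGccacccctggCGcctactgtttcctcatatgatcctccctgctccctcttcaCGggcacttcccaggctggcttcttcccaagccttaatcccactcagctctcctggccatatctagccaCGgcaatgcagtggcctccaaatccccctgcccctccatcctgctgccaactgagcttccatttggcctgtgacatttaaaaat

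The stretches at MEG3 and GNAS hold 21 and 22 CG, and those at KCNQ1OT1 and SNRPN hold 6 and 4. The origins at MEG3 and GNAS overlap a transcript start, while those at KCNQ1OT1 and SNRPN lie 1043 and 4750 bp from the nearest start. In the next stretch, from an origin that rose, capitals mark GGATGG. This motif and GGTGGT, used further on, were chosen after the sequences had been seen.

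IGF2 flank, chr11:2125726-2126025, plus strand: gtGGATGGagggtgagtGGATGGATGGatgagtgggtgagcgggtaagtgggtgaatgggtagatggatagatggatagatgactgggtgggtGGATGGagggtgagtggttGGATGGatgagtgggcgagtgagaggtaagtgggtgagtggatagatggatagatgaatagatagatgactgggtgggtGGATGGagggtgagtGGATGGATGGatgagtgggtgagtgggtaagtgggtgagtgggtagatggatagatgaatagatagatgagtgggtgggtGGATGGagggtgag

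The stretch is a simple repeat rich in G on the strand shown, with 9 copies of GGATGG.

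Origins were dense in most of the windows. In WT cells there were 43.2 origins per Mb of window (95% Poisson interval 32.4 to 56.6), against 10.3 per Mb over the genome. The density in the windows was 35.9 per Mb in *ORC1Δ* (26.1 to 48.2), 44.9 in *ORC2Δ* cells (33.8 to 58.4), and 50.6 in *ORC5Δ* cells (38.8 to 64.8), and the genome had 11.4, 12.9, and 14.1 per Mb in the same lines. The 4 intervals of the windows overlap. Windows of the same design around all 38899 protein-coding and lncRNA genes had a median of 0 origins per Mb in WT cells, with an upper quartile of 39.7, and 54.1% of them had no WT origin. The genes therefore ranged from the empty end of that distribution to its top: MEG3, with 90.4 origins per Mb in WT cells, was above 94.8% of gene windows, and CDKN1C, with 70.5, was above 90.1%. IGF2 had 57.7, KCNQ1 54.0, GNAS 53.8, and KCNQ1OT1 35 origins per Mb. SNRPN had 20.5 and DLK1 19, and H19 and UBE3A had none. The order rests on few origins, and the intervals of neighbors in it overlap (14.5 to 206 per Mb for CDKN1C, which holds 3 WT origins, and 45.1 to 162 for MEG3, which holds 11). The interval of H19, 0 to 74.7 per Mb, overlaps even that of MEG3, while that of UBE3A, 0 to 25.4, does not.

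**Figure D1:**
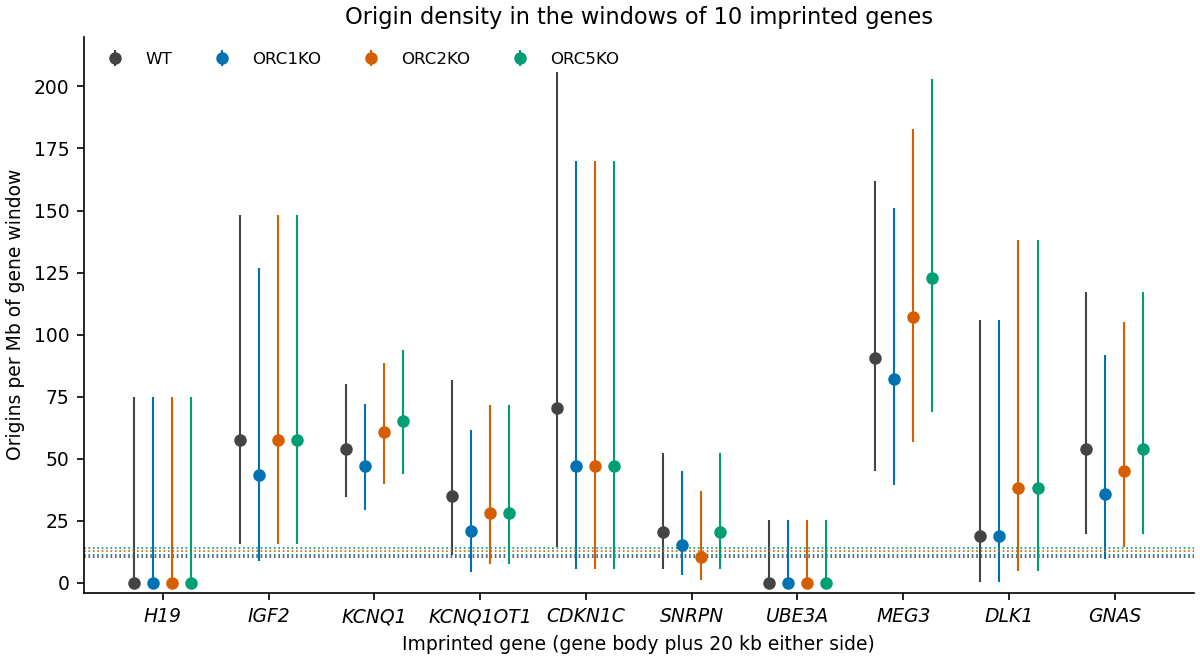
Origins per Mb of gene window (points, with 95% Poisson intervals) for each of the 10 genes in the 4 lines, with the genome mean of each line as a dotted line of the same color. MEG3 has 90.4 per Mb in WT and 123 in ORC5KO, and H19 and UBE3A have 0 in every line.

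Density differed between the clusters. The windows of 14q32 had 68.9 WT origins per Mb (35.6 to 120) and those of 15q11 had 11.8 (3.20 to 30.1), so these intervals do not overlap. The windows at 11p15 had 51.7 per Mb and that at 20q13 had 53.8. The chromosome around the windows followed the same order at its low end: within 5 Mb outside the windows there were 31.1 WT origins per Mb at 11p15, 31.8 at 14q32, 32.5 at 20q13, and 6.75 at 15q11. GC content was 37.1% in the window of UBE3A, 41.2% in that of SNRPN, 52.3% in that of MEG3, and 52.5% in that of DLK1. The GC-richest window, that of H19 with 61.9%, had no origin, and the part of base composition in the densities was not tested.

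Most WT origins of the windows were also listed in the knockout lines. Of the 53 WT origins, 14 had no counterpart in *ORC1Δ* cells (26.4%, 95% Wilson interval 16.4% to 39.6%), 10 had none in *ORC2Δ* cells (18.9%, 10.6% to 31.4%), and 8 had none in *ORC5Δ* cells (15.1%, 7.85% to 27.1%). Over all WT origins the shares without a counterpart were 28.9%, 21.4%, and 17.4%, each inside the interval of the windows. In the other direction, 5 of 44 *ORC1Δ* origins (11.4%, 4.95% to 24.0%), 11 of 55 *ORC2Δ* origins (interval 11.6% to 32.4%), and 17 of 62 *ORC5Δ* origins (27.4%, 17.9% to 39.6%) had no WT counterpart. The genome-wide shares were 35.9%, 37.4%, and 39.7%. Origins that only a knockout line listed were thus less frequent in the windows than over the genome, outside the interval in each line but close to its upper bound for *ORC5Δ*. Of the 73 joined regions, 34 were listed in all 4 lines (46.6%, against 31.9% of all regions), 4 in WT alone (5.48%, against 4.34%), and 7 in *ORC5Δ* alone (9.59%, against 11.3%).

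Few origins of the windows changed by 1.5-fold in RPM, the threshold that the study's methods use. In *ORC1Δ* cells, 4 of 58 origins were up (6.90%), while 7.04% of all origins in that table were, and 1 was down (1.72%, against 3.95%). In *ORC2Δ* cells, 3 of 64 were up (4.69%, against 4.66%) and 2 were down (3.12%, against 3.58%). In *ORC5Δ* cells, 1 of 70 was up (1.43%, against 2.08%) and 0 were down, where 0.68% of all origins were. Of the 56 regions present in all 3 tables, 1 was up in all 3 lines (1.79%, against 1.6% of regions over the genome) and 0 were down in all 3 (against 0.144%). Each share of the windows is near its background, so the imprinted genes did not stand apart by these counts.

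The middle of the distribution moved little. The median log2 fold of the windows was −0.17 in *ORC1Δ* cells, −0.06 in *ORC2Δ* cells, and 0.02 in *ORC5Δ* cells, beside −0.01, −0.04, and −0.003 over all origins, and 41 of 58 origins were below 0 in *ORC1Δ* cells. The origins of the windows had a median GC content of 57.5% in that table, against 52.5% for all its origins. With a running median of the log2 fold over GC content subtracted, the *ORC1Δ* median was −0.04, and with the median of origins within 5 Mb subtracted, it was −0.06. By cluster, the *ORC1Δ* median was −0.19 over 35 origins at 11p15, beside −0.08 over 277 origins around them, and −0.20 over 7 origins at 20q13, beside −0.12 over 395. It was −0.12 at both 14q32 (12 origins, beside −0.14 around them) and 15q11 (4 origins, beside −0.05).

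**Figure D2:**
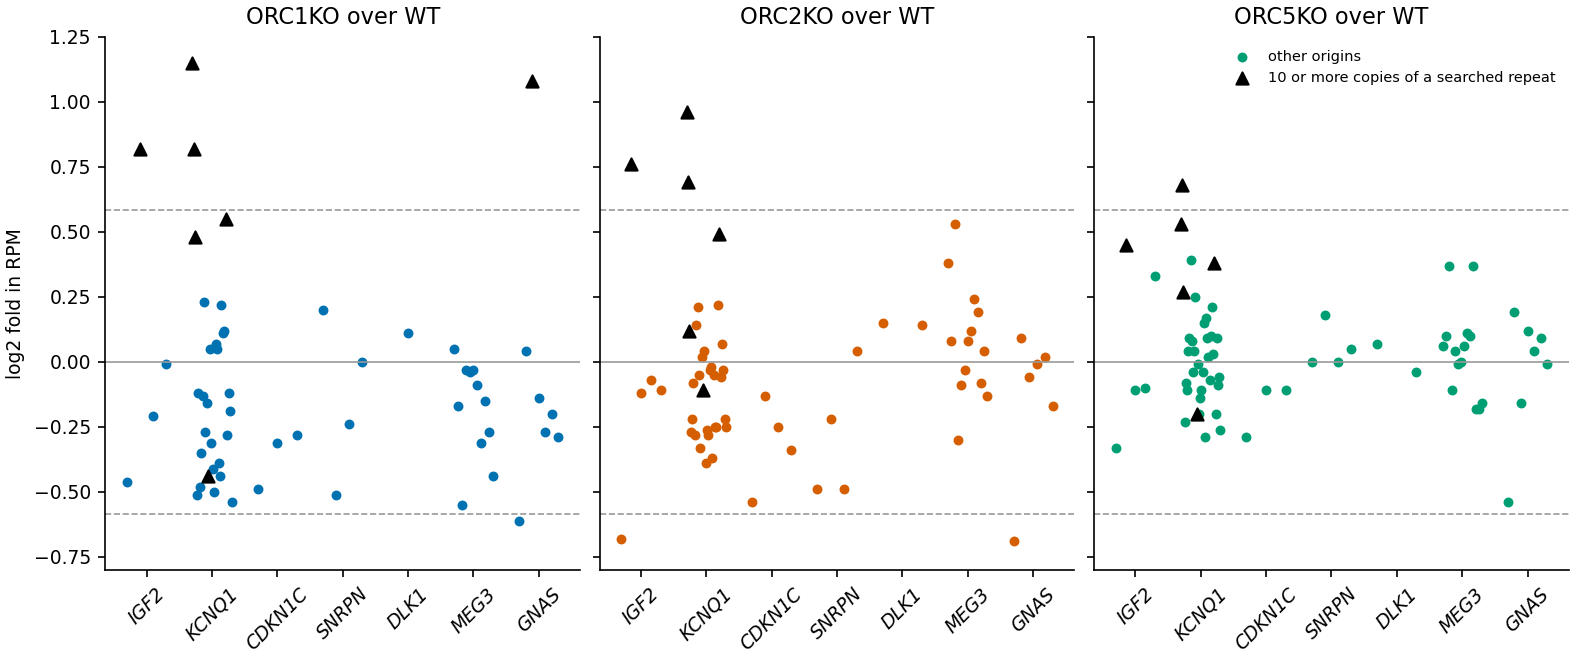
Log2 fold in RPM of each origin region (points) by gene window in the 3 knockout lines over WT, with dashed lines at 1.5-fold and triangles for origins with 10 or more copies of GGATGG or GGTGGT. Regions are placed in the first gene they belong to, from left to right along the chromosome. The 4 origins up in ORC1KO, between 0.82 and 1.15, are all triangles.

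H19 is a noncoding RNA whose upstream control region, bound by CTCF, governs the enhancers shared with IGF2. Its window, chr11:1975166-2024552, held 0 origins in each of the 4 lines, which allows a density of up to 60.7 per Mb if a count of 0 is taken to allow 3 origins (the 95% Poisson interval reaches 74.7), and 0.508 WT origins would fall in a window of 49.4 kb at the genome mean. The nearest origin to an H19 transcript start was 54.3 to 54.5 kb away in the 4 lines. The tables count reads only in listed origins, so no read level of H19 was measured.

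IGF2, the fetal growth factor, had 4 origins in WT, 3 in *ORC1Δ* cells, 4 in *ORC2Δ* cells, and 4 in *ORC5Δ* cells. The origin with the most WT reads, chr11:2138248-2139328, lies at IGF2 promoters and covers an annotated transcript start and UTR exon. It had 612 WT and 551 *ORC1Δ* reads (95.4 and 82.3 RPM), 612 and 661 reads with *ORC2Δ*, and 627 and 719 with *ORC5Δ*. Its log2 folds of −0.21 (95% Clopper-Pearson interval −0.38 to −0.04), −0.12 (−0.28 to 0.04), and −0.11 (−0.27 to 0.04) were all below 1.5-fold, and its WT reads were above those of 98.8% of regions in the first table.

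The change at IGF2 lay in the flank beyond its 3′ end. There, at chr11:2124890-2126862, an intergenic origin had 520 WT and 957 *ORC1Δ* reads, 521 and 1039 with *ORC2Δ*, and 523 and 884 with *ORC5Δ*. It rose 1.76-fold in *ORC1Δ* (log2 fold 0.82, 0.66 to 0.98) and 1.70-fold in *ORC2Δ* cells (0.76, 0.61 to 0.92). The value in *ORC5Δ* cells was 1.36-fold (0.45, 0.29 to 0.61), short of the threshold but with an interval above 0. This origin is the repeat printed above, with 63 copies of GGATGG on the 2 strands together.

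Another flank origin, chr11:2114020-2114539, was listed in WT alone and had 91 WT reads in every table, with 69 in *ORC1Δ* cells, 67 in *ORC2Δ* cells, and 90 in *ORC5Δ* cells. Only the *ORC2Δ* value passed the threshold, with a log2 fold of −0.68 (−1.15 to −0.20) beside −0.46 (−0.93 to 0.01) and −0.33 (−0.76 to 0.11). Summed over the IGF2 window, reads were above WT by 0.27 (0.17 to 0.37), 0.23 (0.13 to 0.32), and 0.12 (0.02 to 0.22) on the log2 scale for the 3 lines in the same order. That direction does not hold for most of its origins: 1 of 4, 1 of 5, and 2 of 5 were above 0, the flank repeat among them each time. In the gene body alone, without the 20 kb on either side, the values were −0.21, −0.11, and −0.11. These restate the promoter origin given above, with chr11:2143343-2143622 added for *ORC2Δ*.

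KCNQ1, which encodes a voltage-gated potassium channel subunit and spans 404 kb, held the most origins: 24 in WT, 21 in *ORC1Δ* cells, 27 in *ORC2Δ* cells, and 29 in *ORC5Δ* cells. They form 35 regions, of which 14 were listed in all 4 lines. The gaps between WT origins in this window had a median of 12.0 kb and reached 75.2 kb, where the genome had a median of 14.4 kb. The longest stretch with no origin in any line, 66.1 kb, lies at chr11:2588392-2654459 and covers the 3′ part of KCNQ1OT1, the antisense RNA that starts within KCNQ1 and silences its neighbors on the paternal copy.

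Inside the 103 kb body of KCNQ1OT1 there were 4 WT origins, or 38.9 per Mb (10.6 to 99.7), and in the other 302 kb of KCNQ1 there were 17, or 56.3 per Mb (32.8 to 90.2). The numbers inside were 2 in *ORC1Δ* cells, 3 in *ORC2Δ* cells, and 3 in *ORC5Δ* cells, and the numbers in the rest were 16, 21, and 23. The 2 parts do not differ beyond their intervals in any line. Of the 7 regions in the KCNQ1OT1 window, flanks included, none was listed in all 4 lines.

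The origin nearest the start of KCNQ1OT1, chr11:2698476-2698939, was listed in WT and *ORC1Δ* cells, 1.12 and 1.04 kb from the nearest annotated start. In the other 2 lines the nearest listed origin was 31989 bp (*ORC2Δ*) and 18082 bp (*ORC5Δ*) away. The reads of the region differed less than the lists: it had 79 WT and 85 *ORC1Δ* reads, 68 and 62 with *ORC2Δ*, and 68 and 69 with *ORC5Δ*. The log2 folds were 0.05 (−0.41 to 0.51), −0.37 (−0.89 to 0.15), and −0.29 (−0.79 to 0.22), so every interval includes 0. The origin with the most WT reads in KCNQ1OT1, chr11:2655095-2655786 in an intron of KCNQ1, was listed in WT, *ORC2Δ*, and *ORC5Δ* cells. It had 212 WT and 156 *ORC1Δ* reads (log2 fold −0.50, −0.81 to −0.20), with −0.28 (−0.56 to 0.00) with *ORC2Δ* and −0.11 (−0.37 to 0.16) with *ORC5Δ*. Summed over the KCNQ1OT1 window, the folds were −0.27 on the log2 scale with *ORC1Δ* (−0.43 to −0.10), −0.23 with *ORC2Δ* (−0.38 to −0.08), and −0.08 with *ORC5Δ* (−0.21 to 0.06).

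At the promoter of KCNQ1, an origin was listed in every line. This region, chr11:2444141-2445088, covers the first annotated start and reaches a UTR exon of TRPM5. It was the highest of the window by mean WT RPM over the 3 comparisons, though chr11:2525694-2527035 had more WT reads with *ORC2Δ* (428). The promoter region had 425 WT and 312 *ORC1Δ* reads, 425 and 414 with *ORC2Δ*, and 425 and 448 with *ORC5Δ*. In RPM these are 66.2 and 46.6, 64.0 and 53.0, and 61.8 and 52.6. All 3 log2 folds were below 0 with intervals that exclude it, −0.51 (−0.72 to −0.29), −0.27 (−0.47 to −0.07), and −0.23 (−0.43 to −0.04), and none reached 1.5-fold. Of the origins at a second promoter, chr11:2461540-2462129 had folds of 0.918, 0.861, and 0.945 in the 3 lines, and chr11:2462696-2463141 had 0.715, 0.947, and 0.929.

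The origins of this window that rose lie upstream of the gene, in introns of TRPM5, a cation channel gene. At chr11:2430368-2430971 there were 103 WT and 189 *ORC1Δ* reads, 103 and 195 with *ORC2Δ*, and 106 and 211 with *ORC5Δ*. This was the 1 region of the windows that was up in all 3 lines, 1.76-fold, 1.61-fold, and 1.61-fold (log2 folds 0.82, 0.69, and 0.68, with lower bounds of 0.46, 0.34, and 0.34). Its neighbor chr11:2428405-2429715 was listed in the 3 knockout lines and not in WT cells. It had 138 WT and 319 *ORC1Δ* reads (2.22-fold), 129 and 295 with *ORC2Δ* (1.94-fold), and 80 and 143 with *ORC5Δ* (1.44-fold). WT cells thus had reads at this region without a listed origin. Both regions are GGT repeats, with 47 and 65 copies of GGTGGT. Over the whole KCNQ1 window the summed log2 folds were −0.05, 0.00, and 0.03, and without the flanks they were −0.17 in *ORC1Δ* and −0.07 in *ORC2Δ* cells.

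CDKN1C, an inhibitor of cyclin-dependent kinases, had no origin in its 2.56 kb body or at its promoter in any line. The nearest origin to a transcript start was 12.2 kb away in WT, *ORC1Δ*, and *ORC5Δ* cells and 6.75 kb away in *ORC2Δ* cells. Its window held 3 WT origins and 2 in each knockout line. The strongest, chr11:2897954-2898778 in an intron of SLC22A18AS, had 208 WT and 175 *ORC1Δ* reads, 208 and 205 with *ORC2Δ*, and 208 and 239 with *ORC5Δ*, with folds of 0.807, 0.838, and 0.927. An origin listed in WT alone, chr11:2871296-2871646 in an intron of KCNQ1DN, was among the 3 lowest, with folds of 0.713, 0.690, and 0.818 from 74 WT reads. The summed reads of the CDKN1C window gave a log2 fold of −0.33 (−0.55 to −0.12) for *ORC1Δ*, −0.30 (−0.49 to −0.10) for *ORC2Δ*, and −0.14 (−0.34 to 0.06) for *ORC5Δ*. With 50 kb on either side, the *ORC2Δ* value was −0.09.

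**Figure D3:**
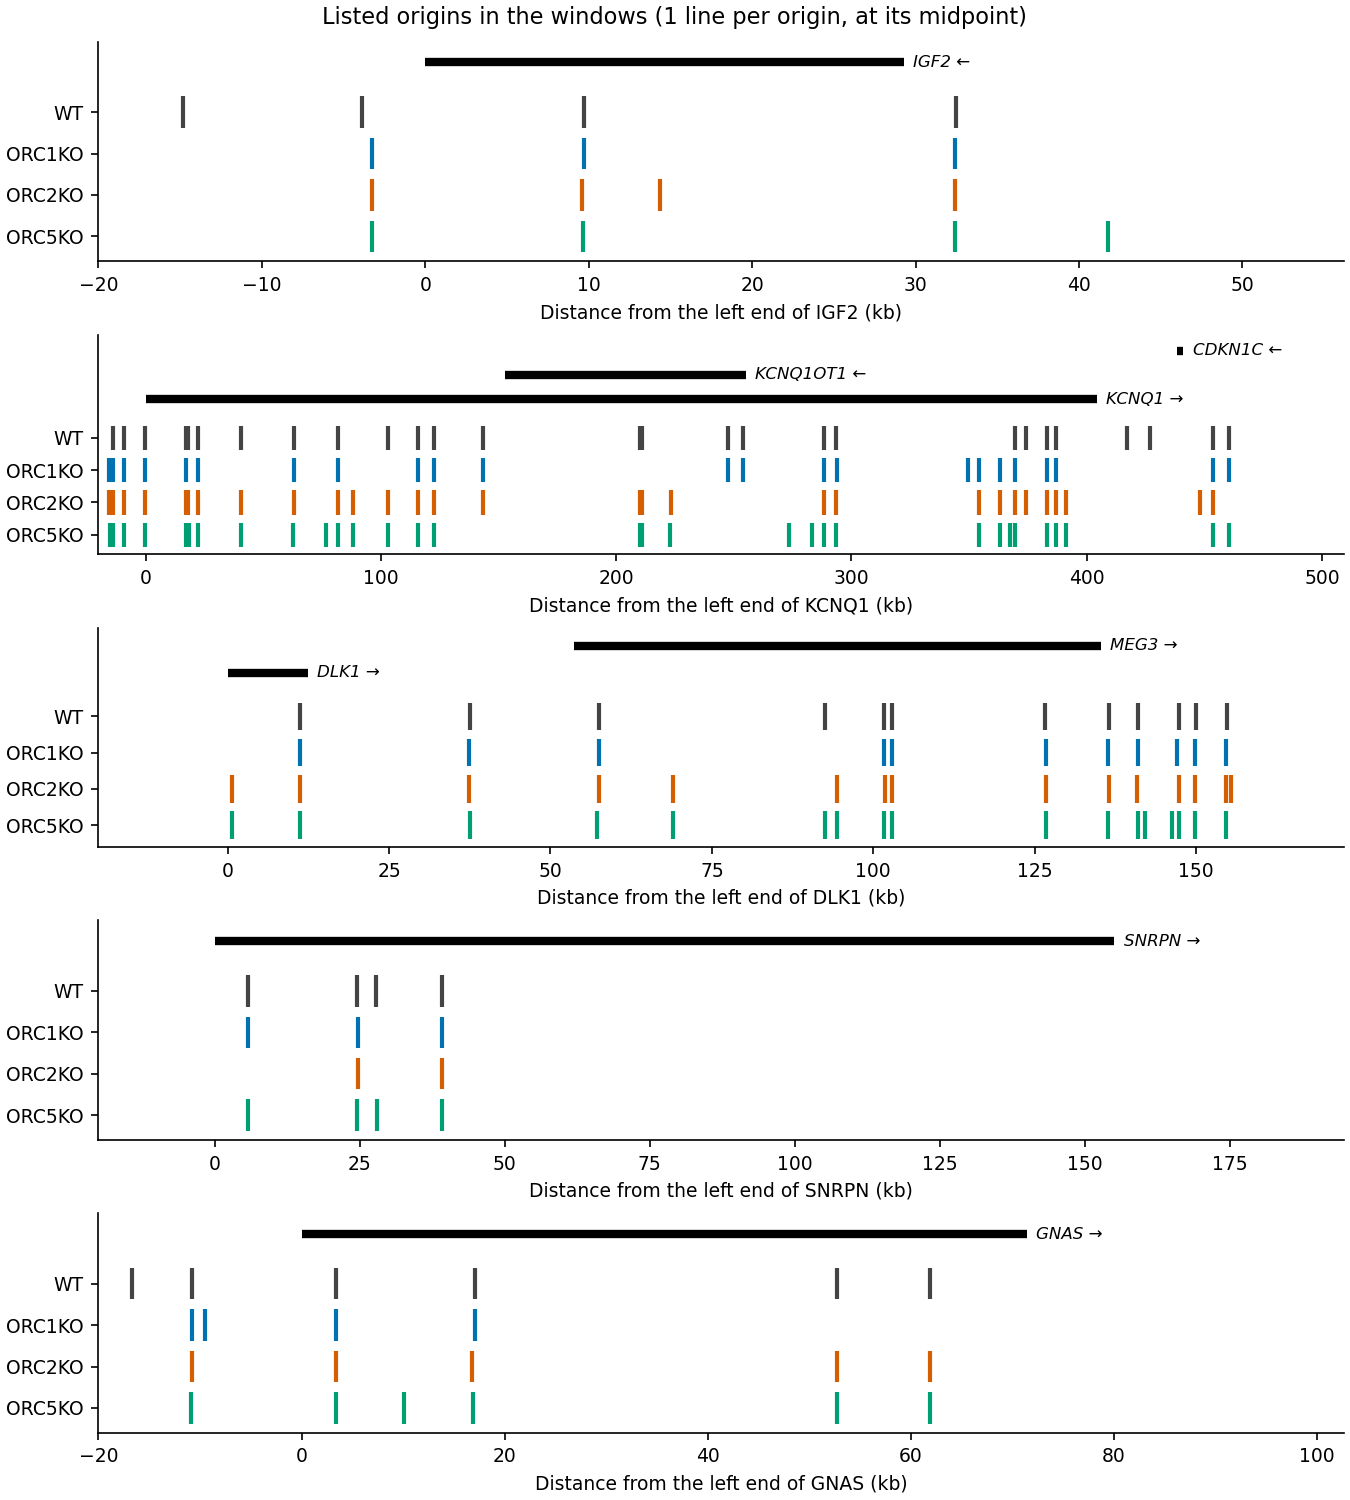
Origins listed in each line (vertical lines at the midpoint of each origin) in the windows of IGF2, KCNQ1 with KCNQ1OT1 and CDKN1C, DLK1 with MEG3, SNRPN, and GNAS. The horizontal axis is the distance in kb from the left end of the named gene, black bars are gene bodies, and arrows give the strand. The right side of the SNRPN window is empty in every line, and the origin at the GNAS promoter, in the right part of the gene, is missing from ORC1KO.

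MEG3, a noncoding RNA made from the maternal copy, had 11 origins in WT, 10 in *ORC1Δ* cells, 13 in *ORC2Δ* cells, and 15 in *ORC5Δ* cells, and 10 of its 14 regions were listed in all 4 lines. Its promoter origins changed least of those named. The region chr14:100826849-100827986, over an annotated start and exon, had 483 WT and 493 *ORC1Δ* reads, 480 and 554 with *ORC2Δ*, and 473 and 582 with *ORC5Δ*. In RPM these are 75.3 and 73.7, 72.3 and 71.0, and 68.8 and 68.3, and the log2 folds of −0.03 (−0.21 to 0.15), −0.03 (−0.21 to 0.15), and −0.01 (−0.19 to 0.17) were all near 0. The next region, chr14:100828192-100828900, had log2 folds of −0.04, 0.08, and 0.00. The region with the highest mean WT RPM over the 3 comparisons, chr14:100871762-100873535, lies in the 3′ flank in an intron of MIR493HG. In *ORC5Δ* cells it was listed as separate origins, chr14:100871762-100872268 and chr14:100872599-100873535. This flank region had 544 WT and 512 *ORC1Δ* reads and 533 and 585 with *ORC5Δ*. With *ORC2Δ*, where the listed region is narrower, it had 405 and 450, fewer WT reads than the promoter region (480). Its log2 folds were −0.15, −0.08, and −0.18. Summed over the MEG3 window, reads were below WT in *ORC1Δ* cells, with a log2 fold of −0.16 (−0.24 to −0.08) and 10 of 11 origins below 0, and the sums were 0.03 (−0.05 to 0.10) with *ORC2Δ* and −0.02 (−0.09 to 0.05) with *ORC5Δ*. In the gene body alone, the *ORC1Δ* value was −0.08. A flank origin chosen after its values were seen, chr14:100879855-100881221, had 432 WT reads and a log2 fold of −0.44 (−0.65 to −0.23) with *ORC1Δ*, beside −0.13 (−0.32 to 0.06) and −0.16 (−0.35 to 0.03) in the other 2 lines. No origin of the MEG3 window reached 1.5-fold in any line, and the values ranged from −0.55 to 0.05 in *ORC1Δ*, from −0.30 to 0.53 in *ORC2Δ*, and from −0.31 to 0.37 in *ORC5Δ* cells.

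DLK1, a membrane ligand of the Notch family active on the paternal copy, had 1 origin in WT and *ORC1Δ* and 2 in *ORC2Δ* and *ORC5Δ* cells. The shared origin, chr14:100736350-100737453, covers a UTR exon and had 550 WT and 620 *ORC1Δ* reads, 552 and 713 with *ORC2Δ*, and 550 and 664 with *ORC5Δ*. Its log2 folds were 0.11 (−0.06 to 0.28), 0.14 (−0.03 to 0.30), and −0.04 (−0.20 to 0.13), all with intervals that include 0. The origin at the DLK1 promoter, chr14:100726035-100726726, was listed in *ORC2Δ* and *ORC5Δ* cells alone, 166 and 195 bp from a start. The reads did not show a gain of that size: 122 WT and 159 *ORC2Δ* reads (1.11-fold, log2 fold 0.15, −0.20 to 0.50) and 118 WT and 154 *ORC5Δ* reads (1.05-fold, 0.07, −0.28 to 0.43).

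SNRPN, a spliceosomal protein gene of the 15q11 cluster, had 4 origins in WT, 3 in *ORC1Δ* cells, 2 in *ORC2Δ* cells, and 4 in *ORC5Δ* cells. All lie inside the gene, toward the start of its 155 kb. The strongest, chr15:24847962-24848542, had 115 WT and 84 *ORC1Δ* reads, 115 and 116 with *ORC2Δ*, and 115 and 162 with *ORC5Δ*. Its log2 folds were −0.51 (−0.94 to −0.10), −0.22 (−0.61 to 0.16), and 0.18 (−0.17 to 0.54), so the interval of this origin excludes 0 with *ORC1Δ*. Summed over the SNRPN window, the log2 fold was −0.26 with *ORC2Δ* (−0.48 to −0.03), −0.17 with *ORC1Δ* (−0.40 to 0.06), and 0.07 with *ORC5Δ* (−0.13 to 0.28). The lowest origins with *ORC2Δ*, chr15:24829232-24829624 and chr15:24851349-24851801 (−0.49 each), were listed in WT and not in *ORC2Δ* cells. Such origins tend to be lower in *ORC2Δ* cells by selection, so the *ORC2Δ* sum is a description only, though its interval excludes 0. The median of its 4 origins in *ORC2Δ* cells was −0.35, beside −0.06 over 94 origins within 5 Mb. None of the 4 lines listed an origin in the last 136 kb of the window, chr15:24863071-24998723, which holds the annotated starts of SNRPN from 24954935 to 24955005, and the nearest origin to these was 91.9 to 92.0 kb away. UBE3A, a ubiquitin ligase gene expressed from the maternal copy in neurons, had 0 origins in the 145 kb of its window in each line, where 1.49 WT origins would fall at the genome mean and up to 20.6 per Mb are allowed by the same rule (the Poisson interval reaches 25.4). The nearest origin to a UBE3A start was 226335 bp away in WT cells, and 32308 to 32314 bp away in the 3 knockout lines. These distances come from the lists alone, for origins outside the window, and whether the reads there differ between the lines was not tested.

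GNAS, which encodes the stimulatory G protein alpha subunit and has several promoters with different imprints, had 6 origins in WT, 4 in *ORC1Δ* cells, 5 in *ORC2Δ* cells, and 6 in *ORC5Δ* cells. The strongest, chr20:58892009-58892852, lies at the downstream promoter that makes the main protein, over UTR exons, and was listed in WT, *ORC2Δ*, and *ORC5Δ* cells. In *ORC1Δ* cells the nearest listed origin was 34.5 kb from the start at 58891421. Its reads there were still 340, beside 374 in WT cells (50.8 and 58.3 RPM), a log2 fold of −0.20 (−0.41 to 0.02), and the values were 0.02 (−0.18 to 0.22) with *ORC2Δ* and 0.09 (−0.11 to 0.29) with *ORC5Δ*. The absence from the *ORC1Δ* list was thus not matched by a loss of reads of 1.5-fold. The origin at an upstream promoter, chr20:58842896-58843397, was listed in all 4 lines with folds of 0.909, 0.956, and 0.897.

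The GNAS flank held both the lowest region and 1 of those that rose. The region chr20:58822828-58823267, in an intron of the antisense RNA gene GNAS-AS1, was listed in WT alone and had 89 WT reads in each table, with 61 in *ORC1Δ* cells, 65 in *ORC2Δ* cells, and 76 in *ORC5Δ* cells. Its folds were 0.657, 0.621, and 0.689, and the intervals of the log2 folds (−1.10 to −0.12, −1.17 to −0.21, and −1.0 to −0.08) exclude 0. It was chosen as the lowest and was listed in WT alone, so values below WT are favored by selection. The intervals share the same 89 WT reads and do not allow for that choice. The region chr20:58830069-58830424 was listed in *ORC1Δ* alone and had 50 WT and 110 *ORC1Δ* reads, 2.11-fold (log2 fold 1.08, 0.58 to 1.59), and the other 2 tables do not count it. Its interval does not allow for its choice by fold either. Summed over the GNAS window, the log2 folds were −0.09, −0.04, and 0.03, with intervals that include 0.

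**Figure D4:**
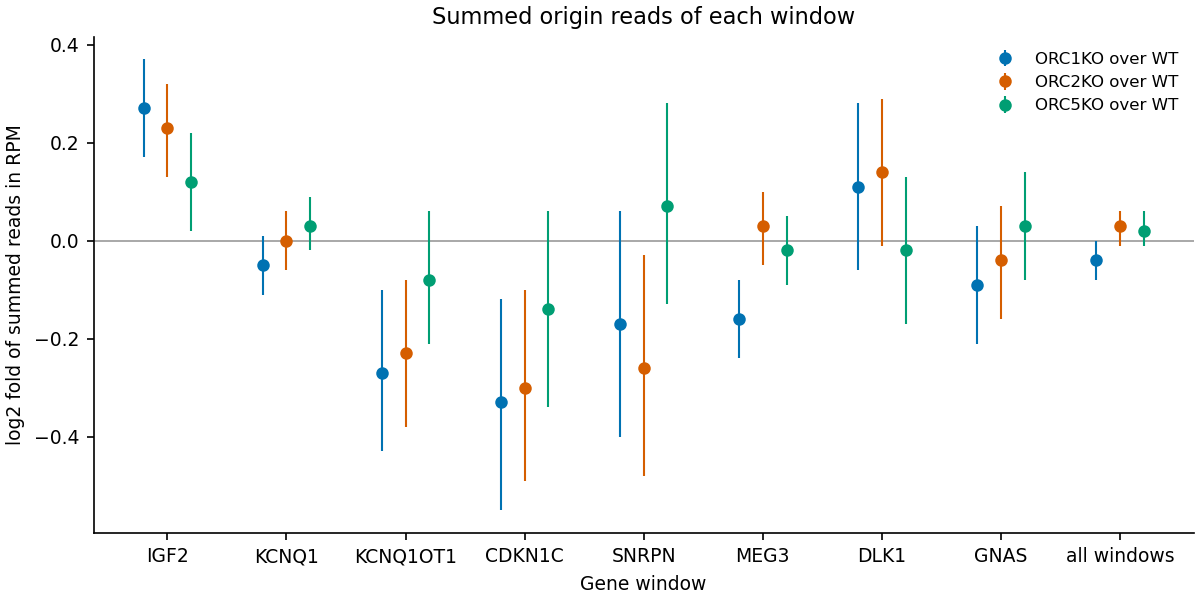
Log2 fold in RPM of the summed origin reads of each gene window (points, with 95% Clopper-Pearson intervals, counting error only) in the 3 knockout lines over WT. IGF2 is above 0 in all 3 lines (0.27, 0.23, and 0.12), CDKN1C is lowest in ORC1KO and ORC2KO (−0.33 and −0.30), and the sum of all windows lies between −0.04 and 0.03.

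The lists and the reads were compared over all the windows. The 14 regions listed in WT and not in *ORC1Δ* cells had a median log2 fold of −0.44 (from −0.61 to −0.13), and 1 of them was down by 1.5-fold. Over the genome the median of such regions was −0.28, and 1246 of 8648 were down. Those missing in *ORC2Δ* had a median of −0.43 over 10 regions, with 2 down, and those missing in *ORC5Δ* had −0.27 over 8, with 0 down. The genome-wide medians were −0.35 (1316 of 6426 down) and −0.20 (261 of 5210 down). The regions listed in a knockout line and not in WT cells had medians of 0.22 (5 regions, *ORC1Δ*), −0.07 (11, *ORC2Δ*), and 0.10 (16, *ORC5Δ*). The lists were called from the same reads that give the folds. A region listed in 1 line of a pair thus tends to be higher in that line by selection, and the directions are a description only. Of the regions listed in WT alone of a pair, 0 of 14, 0 of 10, and 1 of 8 had a log2 fold above 0. The genome-wide numbers were 1324 of 8648, 836 of 6426, and 990 of 5210. Of those listed in the knockout line alone, 5 of 5, 4 of 11, and 14 of 16 were above 0. Over the genome these were 10216 of 11960, 9311 of 14069, and 11572 of 16317, with the lowest share in *ORC2Δ* cells as well.

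The origins that rose were simple repeats. The motifs were picked from their sequences, and a rise of repeat origins was known from earlier results of these data, so the counts that follow are a description. Of the 58 regions in the *ORC1Δ* table, 7 had 10 or more copies of GGATGG or GGTGGT on the 2 strands together (overlapping copies counted), and 4 of these were up, while 0 of the other 51 were. In *ORC2Δ* cells it was 3 of 6, against 0 of 58, and in *ORC5Δ* cells 1 of 6, against 0 of 63. The median log2 fold of the repeat regions was 0.82, 0.59, and 0.42 in the 3 lines, and that of the others was −0.20, −0.08, and 0.00. Besides those described, the repeat regions included chr11:2813594-2814682 in an intron of KCNQ1 with 35 copies of GGATGG (254 WT and 387 *ORC1Δ* reads, and log2 folds of 0.55, 0.49, and 0.38) and chr11:2435185-2435901 in an intron of TRPM5 with 21 copies (0.48, 0.12, and 0.27). The repeat alone did not go with a rise in every case, since chr11:2559991-2560977 in KCNQ1, with 14 copies of GGATGG, had log2 folds of −0.44, −0.11, and −0.20.

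Over the genome, 1387 regions with 10 or more copies of GGATGG had a median log2 fold of 0.51 in *ORC1Δ* cells and 43.0% of them were up, and 479 regions with as many copies of GGTGGT had 0.76 and 64.1%. In *ORC2Δ* cells 27.7% and 47.6%, and in *ORC5Δ* cells 19.4% and 41.2%, of such regions were up. The repeat regions of the imprinted genes are therefore few examples of a pattern that is not particular to them.

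A similar split was seen by GC skew, the excess of G over C on the plus strand divided by their sum. At an absolute skew of 0.7 or more, a limit chosen after the values had been seen, 4 of 6 origins of the windows were up in *ORC1Δ* cells, 3 of 4 in *ORC2Δ* cells, and 1 of 5 in *ORC5Δ* cells, against 60.3%, 50.9%, and 33.1% of such origins over the genome. Skew was computed on the interval each table gives. Below the limit, 0 of 52, 0 of 60, and 0 of 65 were up, and over the genome 4.72%, 2.61%, and 0.946% of such origins were, so 0 is close to the background. The IGF2 repeat had a skew of 0.93, the KCNQ1 flank repeats 0.82 and 0.77, and the GNAS repeat −0.85, where C is in excess on the plus strand.

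**Figure D5:**
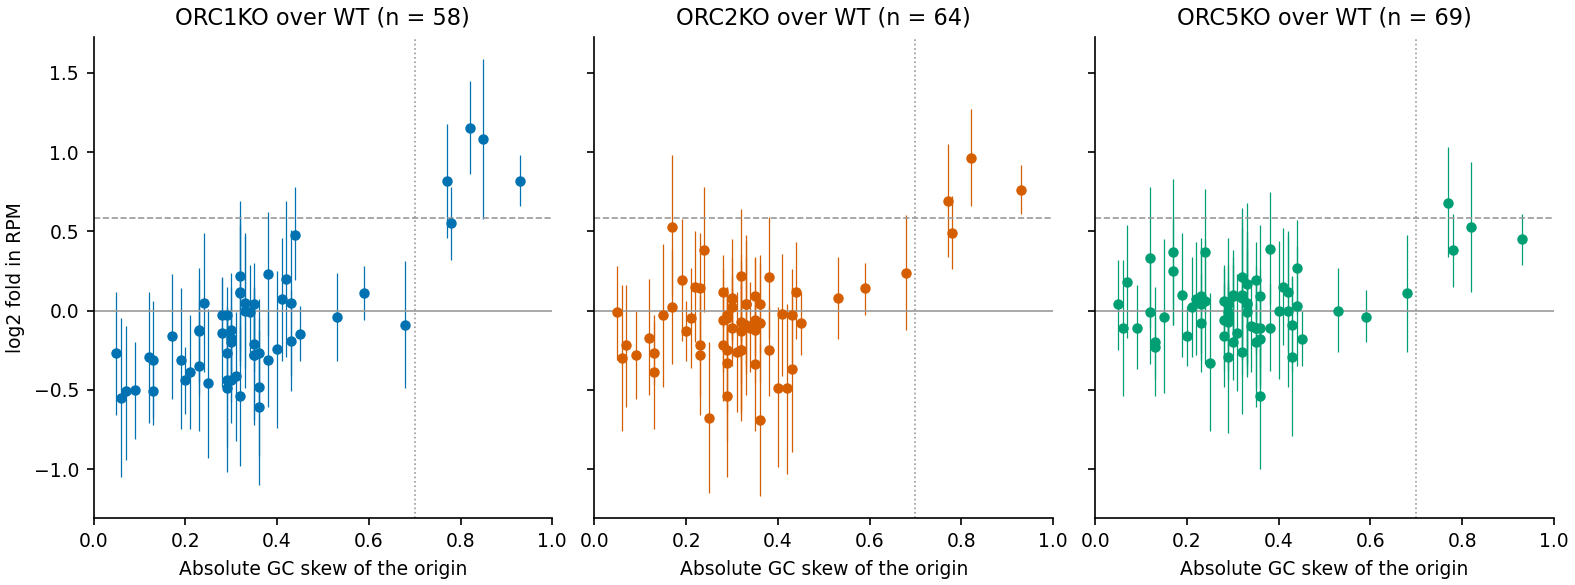
Log2 fold in RPM of each origin region of the windows (points, with 95% Clopper-Pearson intervals) against the absolute GC skew of its sequence, for the 3 knockout lines over WT. The dashed line is 1.5-fold and the dotted line an absolute skew of 0.7. Every point above 1.5-fold lies to the right of the dotted line.

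Other motifs were searched on both strands of the 73 regions, whose median width was 585 bp against 547 bp for all 56863 regions, with lengths not matched. A G-quadruplex form, 4 runs of at least 3 G with loops of 1 to 7 bases, was present in 46 regions (63.0%, against 48.1% of all). The hexamer TGCCGC, which the zinc finger protein ZFP57 binds when methylated, was present in 13 (17.8%, against 11.9%), among them the MEG3 promoter origin with 2 copies and the GNAS promoter origin with 1. The core motif of the CTCF sites in the H19 control region was found in 0 of the 73 regions and in 0.0193% of all.

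Promoters of the 10 genes held few of their origins. With a promoter taken as 2 kb on either side of an annotated start, 9 of 53 WT origins lay at a promoter (17.0%, 95% Wilson interval 9.20% to 29.2%), 27 in the rest of a gene body (50.9%), and 17 in a flank (32.1%). Promoters make up 9.81% of the bases in the windows, gene bodies 62.5%, and flanks 27.7%, so WT density was 74.9 origins per Mb at promoters, 35.2 in gene bodies, and 50.1 in flanks. The share at promoters was 15.9% in *ORC1Δ* (7 of 44), 16.4% in *ORC2Δ* cells (9 of 55), and 14.5% in *ORC5Δ* cells (9 of 62), each inside the WT interval. Of the 118 annotated starts of the 10 genes, 46 had a WT origin within 2 kb, among them 7 of 9 at IGF2, 3 of 4 at KCNQ1, 14 of 28 at MEG3, and 17 of 43 at GNAS. The same count was 34 in *ORC1Δ* cells, 43 in *ORC2Δ* cells, and 44 in *ORC5Δ* cells. Starts of a gene lie close together, so 1 origin can count for many of them. Most of the difference in *ORC1Δ* cells lies at GNAS, with 6 starts against 17 in WT cells. There the origin chr20:58892009-58892852 was not listed, though it had 340 reads beside 374 in WT cells. The starts without an origin in every line include all those of H19, CDKN1C, SNRPN, and UBE3A. Promoters of any protein-coding or lncRNA gene held 32.1% of WT origins in the windows and 22.8% of WT origins over the genome.

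Other imprinted genes were counted in the same way. The windows of 22 further genes of the same clusters held 47 WT origins, 21.6 per Mb, and 7 of the 22 had none in WT cells. Only 30 of the 47 lie outside the windows of the 10 genes, and the rest are also counted there. MAGEL2, MKRN3, NDN, SNURF, and SNHG14, all neighbors of SNRPN at 15q11, had no origin in any line. Outside the windows of the 10 genes, 4 of 40 origins of this list were up in *ORC1Δ* cells, 4 of 48 in *ORC2Δ*, and 5 of 47 in *ORC5Δ* cells (10.0%, 8.33%, and 10.6%), and 2, 2, and 0 were down. The shares up are above the 7.04%, 4.66%, and 2.08% of all origins but rest on 4 or 5 origins each. OSBPL5 held 2, 1, and 3 of those that were up and MEG8 held 2 in each line, and the median log2 folds of the list were −0.14, −0.02, and −0.02. A further 22 imprinted genes elsewhere held 38 WT origins, 19.6 per Mb, and DIRAS3, HYMAI, KLF14, PEG3, and ZDBF2 had none in any line. Of their origins, 3 of 50 were up in *ORC1Δ* cells, 0 of 55 in *ORC2Δ* cells, and 0 of 68 in *ORC5Δ* cells, and 3, 0, and 0 were down. The medians there were −0.04, −0.02, and 0.05, near those of all origins.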

How the data were processed

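Short nascent strands were enriched by size selection and lambda exonuclease digestion and sequenced in 4 HCT116 lines (8 samples, 2 replicates per line). Per the labels, reads were processed with Trim Galore, Bowtie, MACS2, and bedtools on GRCh38 (the submitters' processing notes). The authors called peaks per replicate and kept those found in both as the origins of a line, which the deposited lists give as start and end positions. The deposited tables hold read counts, not normalized, with the replicates merged by the authors, for WT and 1 knockout line in each of 3 tables. The counting tool and the treatment of duplicates are not given in the sources used here. Peaks are called against a threshold in each line, so a list can differ where read counts do not.

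From these, origins overlapping a gene of GENCODE release 44 or its 20 kb flanks by at least 1 bp were taken as members. Counts were scaled to RPM, and an origin was up or down at 1.5-fold, as in the study's methods. Intervals are 95%, Clopper-Pearson for folds, Wilson for shares, and Poisson for densities. Tables were joined into regions where intervals overlapped. Origins were named when they had the most WT reads of a gene window, lay at a promoter of a member, reached 1.5-fold in a line, or were among the 3 highest and 3 lowest by the smallest fold among those changed in 1 direction by every knockout, with a minimum of 100 reads per table. The most WT reads means the highest mean WT RPM over the 3 comparisons. The repeat motifs, the limit of 10 copies, the limit on GC skew, and the repeat origins named outside that rule were chosen after seeing the data. The members and gene lists were chosen with earlier results of these data known, and the rise of repeat origins was among those results. Sequences were read from hg38. The sequences of the other origins that rose are not reported here. Alternatives were other scalings (median of ratios, edgeR TMM, reads in origins listed in both lines), a GC correction, other folds, read minimums, flanks, overlaps, and promoter widths. The calculations were tested on simulated data. Versions were edgeR 4.0.16 in R 4.3.3, and scipy 1.17.1, pandas 2.3.3, pysam 0.24.0, numpy 2.4.6, and matplotlib 3.10.9 in Python 3.11.15, with samtools 1.23.1.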

Additional observations from a re-analysis of the deposited data

How the results depend on the processing

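No paired analysis was possible because the deposited tables merge the replicates, and for the same reason no replicate could be left out. Of 422 values under an alternative, 393 stayed within their counting interval or 1.5 times the main count, 26 moved, and 3 changed sign. The last 3 are the summed log2 folds of IGF2, which in the gene body alone were −0.21 (*ORC1Δ*), −0.11 (*ORC2Δ*), and −0.11 (*ORC5Δ*). Only the promoter origin is left there, with chr11:2143343-2143622 added for *ORC2Δ*. Of the 393, 189 are rescalings of single named origins. Each scaling shifts every log2 fold of a line by the same amount, at most 0.043. The intervals of these origins are wider than that, so the 189 could not move. The same is true of the rescaled sums of gene windows and the rescaled medians, whose intervals also reach further than the shift. Those values that stayed are therefore no check of the results either. Without flanks, 29 *ORC1Δ* origins were left, and 0 were up in any line and 0 were down in *ORC1Δ* or *ORC2Δ* cells, since every called origin lies in a flank. At 2-fold, 2 origins were up in *ORC1Δ* cells and 0 in the others, and 0 were down in *ORC1Δ* or *ORC2Δ* cells. At a log2 fold of 0.32 in place of 0.58, 6 were up with *ORC2Δ* and 8 with *ORC5Δ*, and 15, 9, and 2 were down with *ORC1Δ*, *ORC2Δ*, and *ORC5Δ*. With at least 200 reads, 0 were down in *ORC1Δ* or *ORC2Δ* cells. The *ORC1Δ* count of 1 origin down became 0 when scaled to origins listed in both lines, 2 after the GC correction, and 2 with 50 kb flanks, and the cause was not tested. With promoters of 5 kb on either side, 25.8% of *ORC5Δ* origins lay at one. The scalings of named origins were added after seeing the data. Depth limits the calls, since the lowest origin, with 89 WT reads, had an interval of −1.10 to −0.12 in *ORC1Δ* cells, on both sides of the threshold.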
